A study of Mus musculus with 4 samples.

Results

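Collagens, the triple-helical proteins of the extracellular matrix, were followed through the first week of differentiation of mouse embryonic stem (ES) cells. The members are the probe sets whose single annotated gene symbol is a collagen chain (Col, a type number, a and a chain number), with no regard to their signal. There were 46 such probe sets of 35556 on the array, and they stand for 44 genes of the 19938 genes with a probe set of their own. By chain type, 11 of the 44 genes encode fibrillar chains, 6 encode the type IV chains of basement membranes and 27 encode other types. The samples were embryoid bodies (EBs, balls of cells grown in suspension where all germ layers start to appear) taken at day 7 with 50 nM bexarotene, EBs at day 7 with retinoic acid (RA), EBs at day 7 with neither ligand, and undifferentiated ES cells at day 0 with no treatment. All came from D3 cells, a mouse ES cell line, and EBs spent 2 days in hanging drops followed by 5 days in suspension. Bexarotene is a synthetic ligand of the retinoid X receptor (RXR), and RA is the natural ligand of the retinoic acid receptor. The RA dose is 5 µM in the sample labels and lower, in the nanomolar range, in the article, so by either account the ligands were not given at the same dose, and no difference between them can be read at a matched dose.

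Each condition has 1 array, so no test was possible, and every difference is one between single arrays without replicate cultures. Values are log2 signal, on which a difference of 1 is a doubling, and a gene was called higher or lower past a difference of 1.5-fold, or 0.585 on the log2 scale. The median log2 signal was 6.68 with bexarotene, 6.69 with RA, 6.68 in untreated EBs and 6.66 in ES cells. The ES label was checked against genes of the pluripotent state. Of these, 8 of 10 were lower in each EB array than in ES cells. Over all genes 9.69% were lower with bexarotene, 9.19% with RA and 8.52% without ligand. Such genes part EBs from ES cells and cannot check which EB array had which ligand. Signal is summed over a whole culture, so that fewer cells of a type and less RNA per cell cannot be told apart.

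Fibrillar collagens (types I, II, III, V, XI, XXIV and XXVII) pack into the striated fibrils of connective tissue, cartilage and bone. Type IV chains join into a flat network that, with laminin, forms basement membranes, and the trimer of Col4a1 and Col4a2 chains is the form that is laid down first in the mouse embryo. Mouse F9 embryonal carcinoma cells make this network when treatment that includes retinoic acid turns them into endoderm, and both genes have long served as markers of that change. The remaining types decorate fibrils, span the cell membrane, form short-chain networks or bead-like filaments, or carry large sugar chains.

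The outcome was narrow: of 44 collagen genes, only Col4a1, Col4a2 and Col2a1 were past 1.5-fold in all 3 EB arrays against ES cells, and Col26a1 in those with a ligand. With bexarotene 4 genes (9.09%) were higher than in ES cells, against 10.2% of all genes, and none was lower, against 9.69% of all genes. With RA the same 4 were higher, against a background of 10.5%, and none was lower, against 9.19%. Untreated EBs had 3 higher (6.82%), against 11.0% of all genes, and none lower, against 8.52%. The share of collagens that was higher thus lay near or under the share over all genes. These comparisons share the ES array and are not independent of one another.

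**Figure D1:**
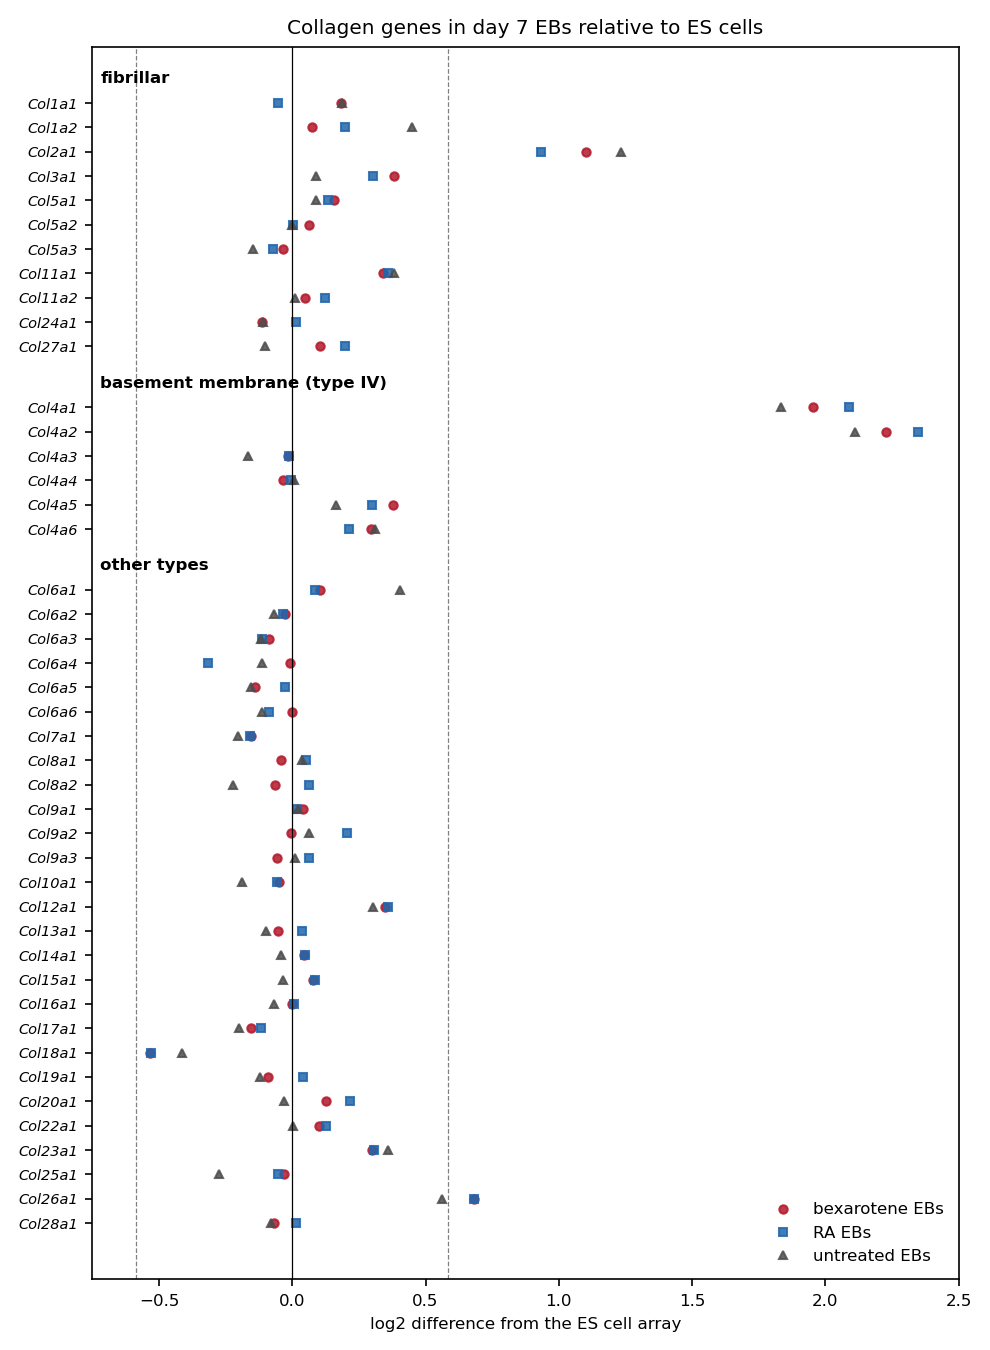
Log2 difference of each of the 44 collagen genes from ES cells, with 1 point for each of the bexarotene, RA and untreated EB arrays and genes grouped as fibrillar, type IV and other chains; dashed lines mark 1.5-fold. Col4a1, Col4a2 and Col2a1 lie to the right of the line in all 3 EB arrays, Col26a1 in the 2 arrays with a ligand, and no gene lies to the left of it.

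Col4a1 and Col4a2 are printed here with their start region because they carried the largest differences and lie head to head. In the RefSeq annotation of GRCm38.p6 they sit on chromosome 8 on opposite strands. Col4a1 starts at 11312826 on the minus strand and Col4a2 at 11312805 on the plus strand. The starts are 21 bases apart with no gap between the genes, since 22 bases are transcribed from both. The stretch chr8:11312790-11312819 on the plus strand lies across the start of Col4a2, with a CCCTCCCC motif (CTC box) and a GGGCGG motif (GC box) in capitals.
Col4a1 and Col4a2: ccCCCTCCCCtcggcagtgcgcGGGCGGcg
The first base of the CTC box is 13 bases before the start of Col4a2, and that of the GC box 7 bases after it. Read along the strand of Col4a1, the boxes begin 27 and 9 bases after its start. Over windows of 250 bases before to 50 after a start, searched on both strands, the CTC box was in 10.8% of all 32851 windows and in 11 of 38 collagen windows, which cover 35 genes. The GC box was in 35.7% of all windows and in 23 of the 38. The CTC box shown lies in the windows of both Col4a1 and Col4a2 and was counted for each. These windows hold 74.0% and 73.7% G and C bases, against a median of 52.7% over all windows. The median over collagen windows was 59.8%, and the part of base content in the box counts was not tested. AGGTCA, the core letters of a nuclear receptor site, was in 16.3% of all windows and in 8 of the 38 collagen windows, and it was not in those of Col4a1 and Col4a2. A match of letters is a description of the window and shows no binding.

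Col4a1 had a log2 signal of 10.08 with bexarotene, 10.22 with RA and 9.96 in untreated EBs, against 8.13 in ES cells. Col4a2 had 10.20 with bexarotene, 10.32 with RA and 10.08 in untreated EBs, against 7.97 in ES cells. Both genes thus stood apart from ES cells in every EB array, while the EB arrays lay close together. In fold terms Col4a1 rose 3.88-fold with bexarotene, 4.26-fold with RA and 3.56-fold without ligand. Col4a2 rose 4.68-fold, 5.08-fold and 4.32-fold in the same order of arrays, so each gene had its highest signal with RA and its lowest EB signal without ligand. RA EBs exceeded untreated EBs by 0.26 for Col4a1 and 0.24 for Col4a2, and bexarotene EBs did so by 0.12 for each, all short of 1.5-fold.

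The other type IV genes, which also lie as adjacent pairs, were not past 1.5-fold. Col4a3 and Col4a4 encode chains of the mature kidney glomerulus, and Col4a5 and Col4a6 are a pair on the X chromosome whose starts lie 1343 bases apart. Col4a5 differed from ES cells by 0.38 with bexarotene, 0.30 with RA and 0.16 in untreated EBs, and Col4a6 by 0.29, 0.21 and 0.31. Col4a3 differed by -0.02, -0.01 and -0.17 and Col4a4 by -0.03, -0.00 and 0.01. The median of the type IV class against ES cells was 0.34 with bexarotene, 0.26 with RA and 0.24 without ligand. Without Col4a1 and Col4a2 it was 0.14, 0.10 and 0.09, beside -0.03, -0.02 and -0.04 over all genes.

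Parietal and visceral endoderm are the extraembryonic layers that build basement membrane around the early embryo. Most of their listed genes were higher than in ES cells, as were Col4a1 and Col4a2. Of 14 such genes, 12 were higher than in ES cells with bexarotene, 12 with RA and 10 in untreated EBs, and none was lower, beside 10.2%, 10.5% and 11.0% of all genes higher. Their mean log2 signal was 9.59 with bexarotene, 9.71 with RA and 9.49 in untreated EBs, against 8.35 in ES cells. Lama1, which encodes the alpha chain of the laminin of the first basement membranes, had 11.45, 11.54 and 11.37 in the same 3 EB arrays, against 10.33 in ES cells. Dab2, an endocytic adaptor of these layers, had 11.65, 11.75 and 11.45, against 10.20. The order of the EB arrays seen in Lama1 and Dab2 was not that of every gene in the list. Ttr had 9.18, 9.67 and 9.45, against 5.85, and Afp had 7.33, 7.13 and 6.93, against 5.82. On the ES array the transcription factor genes of the list differed in log2 signal, beside an array median of 6.66. Gata6 had 10.02, Gata4 9.03, Sox7 7.93, Hnf4a 7.30 and Sox17 7.20. The part of endoderm cells in the type IV values was not tested. None of the 14 was past 1.5-fold between EB arrays. Endothelial cells also lay down type IV collagen, and of 9 of their genes 4 were higher than in ES cells with bexarotene, 3 with RA and 4 without ligand, while 2 were lower in each, beside the same shares of all genes.

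Among fibrillar collagens only Col2a1, the main collagen of cartilage and of the notochord sheath, was past 1.5-fold. Its log2 signal was 8.80 with bexarotene, 8.63 with RA and 8.93 in untreated EBs, against 7.70 in ES cells. It rose 2.15-fold with bexarotene, 1.91-fold with RA and 2.35-fold without ligand. Unlike the type IV pair, Col2a1 had its highest signal without ligand, and the ligand EBs differed from untreated EBs by -0.13 with bexarotene and -0.30 with RA. The bexarotene difference was -0.07 after quantile normalization and -0.08 after loess.

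Genes of cartilage and notochord moved in part with Col2a1. Sox9, the transcription factor that switches on Col2a1 in cartilage, had a log2 signal of 9.38 with bexarotene, 9.57 with RA and 9.91 in untreated EBs, against 7.14 in ES cells. Foxa2, a factor of notochord, floor plate and endoderm, had 8.04, 7.93 and 9.19, against 6.62. Shh, the signal secreted by notochord and floor plate, had 7.33, 7.55 and 9.52, against 7.11. Sox9 and Foxa2 thus rose in all 3 EB arrays, whereas Shh rose without ligand alone. Like Col2a1, these 3 genes were highest without ligand. Sox5, also in the list, was highest with RA instead. It had 7.24, 7.52 and 7.16, against 6.70, and was past 1.5-fold with RA alone. Later cartilage genes did not join them: Acan, the proteoglycan aggrecan, had 6.04, 6.05 and 5.97, against 6.99, and fell in each EB array, as did Matn3, a cartilage matrilin. Of 11 genes in the list, 2 were higher with bexarotene, 3 with RA and 3 without ligand, and 2 were lower in each, where 10.2%, 10.5% and 11.0% of all genes were higher and 9.69%, 9.19% and 8.52% lower. The part of these cell types in the Col2a1 values was not tested.

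The chains of interstitial connective tissue stayed within 1.5-fold. Col1a1 and Col1a2 together build type I collagen, the main fibre of skin and bone. Col1a1 had a log2 signal of 7.85 with bexarotene, 7.61 with RA and 7.85 in untreated EBs, against 7.67 in ES cells. Col1a2 had 7.48, 7.61 and 7.86, against 7.41, so that only untreated EBs lay well above ES cells, by 0.45. Col3a1, whose product accompanies type I in soft tissue, had 7.51, 7.43 and 7.22, against 7.13. The partners of type I and type II fibrils also stayed within 1.5-fold. Col11a1 differed from ES cells by 0.34 with bexarotene, 0.36 with RA and 0.38 without ligand, and Col5a1 by 0.16, 0.13 and 0.09. Col5a2, Col5a3, Col11a2, Col24a1 and Col27a1 lay between -0.15 and 0.20 of ES cells in every EB array. The fibrillar class had a median of 0.11 with bexarotene, 0.13 with RA and 0.09 without ligand.

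Mesenchyme genes did move in the same arrays. Of 12 markers of mesenchyme, the loose tissue that gives rise to connective tissue, 8 were higher than in ES cells with bexarotene, 6 with RA and 7 without ligand, and Thy1 was lower in each, beside the same shares of all genes. Pdgfra, a growth factor receptor of mesenchyme that endoderm also carries, had a log2 signal of 10.49 with bexarotene, 10.49 with RA and 10.38 in untreated EBs, against 8.87 in ES cells. Prrx1, a homeobox factor of limb and face mesenchyme, had 7.47, 7.17 and 8.39, against 6.02. The mean of the list was 8.12, 7.80 and 8.17, against 7.33. Foxf1, Prrx1 and Pdgfrb were past 1.5-fold lower with RA than without ligand, and none was higher, against 2.22% and 2.07% of all genes. With bexarotene Prrx2 was higher and Prrx1 lower than without ligand, against 1.48% and 2.15%. Foxf1, Prrx2 and Snai2 were higher with bexarotene than with RA, and none was lower, against 0.196% and 0.296%.

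**Figure D2:**
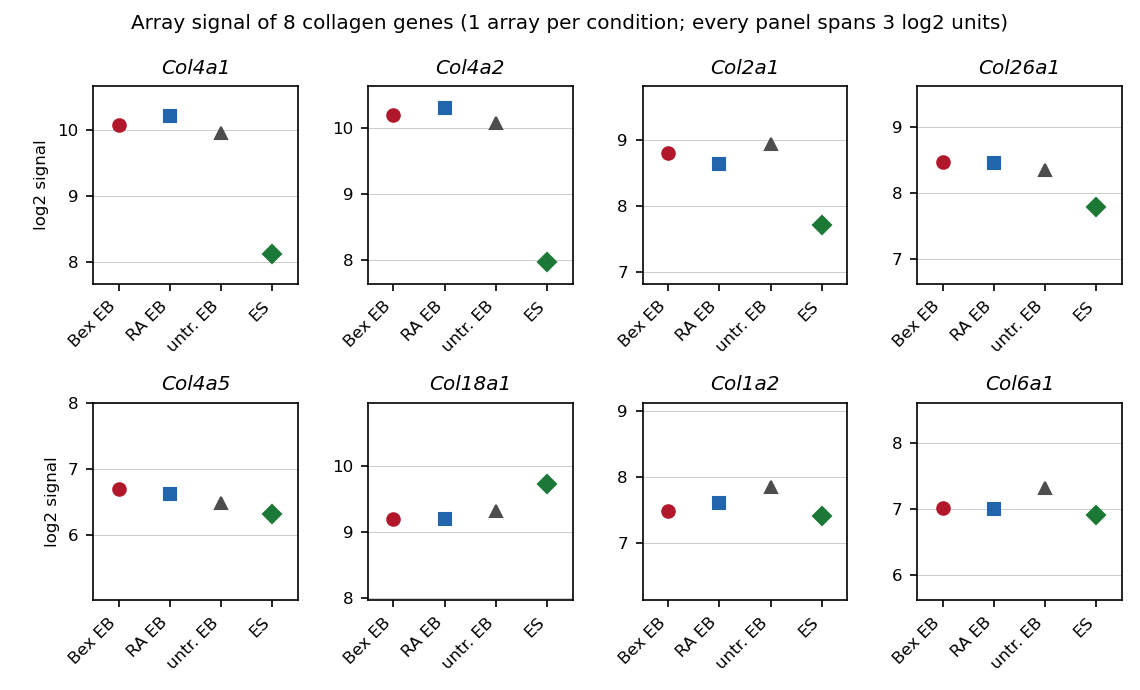
Log2 signal of 8 collagen genes on the bexarotene EB, RA EB, untreated EB and ES arrays, 1 point per array and without error bars because no condition has a replicate; every panel spans 3 log2 units. Col4a1, Col4a2, Col2a1 and Col26a1 are lowest in ES cells and Col18a1 is highest there, while Col1a2 and Col6a1 are highest in untreated EBs.

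Among the 27 genes of other types, Col26a1 alone was past the threshold. Col26a1, first described in mouse testis and ovary, had a log2 signal of 8.46 with bexarotene, 8.46 with RA and 8.34 in untreated EBs, against 7.78 in ES cells. The ligand arrays exceeded ES cells by 0.68 each and untreated EBs did so by 0.56, just inside the threshold, so that the calls separate arrays only 0.12 apart. The nearest gene on the lower side was Col18a1, whose product carries heparan sulfate in basement membranes and holds the endostatin fragment. It had 9.20 with bexarotene, 9.20 with RA and 9.32 in untreated EBs, against 9.73 in ES cells, or -0.53, -0.53 and -0.42. Its direction was thus opposite to that of Col4a1 and Col4a2 in all 3 EB arrays, without passing 1.5-fold. Col15a1, the other chain of this kind, differed from ES cells by 0.08, 0.09 and -0.03, and Col7a1, the anchoring fibril of skin, by -0.16, -0.16 and -0.20.

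Type VI chains form beaded filaments near basement membranes. Col6a1 had a log2 signal of 7.02 with bexarotene, 7.00 with RA and 7.32 in untreated EBs, against 6.91 in ES cells, while its partner Col6a2 had 7.05, 7.04 and 7.01, against 7.07. Only Col6a1 of the pair therefore showed the untreated EBs above the rest. Col6a3, the long chain of the trimer, differed from ES cells by -0.09, -0.12 and -0.12. The probe sets of Col6a5 disagreed: the brighter gave -0.14 with bexarotene, -0.03 with RA and -0.15 without ligand, and the dimmer gave -0.63, -0.52 and -0.64, past 1.5-fold with bexarotene and without ligand. Col6a4, another long chain, differed by -0.01 with bexarotene, -0.32 with RA and -0.11 without ligand. Both probe sets of Col6a6 lay within 0.13 of ES cells in every EB array.

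The fibril-associated collagens, which sit on fibril surfaces, and the transmembrane collagens were close to their ES values. Col12a1, found on type I fibrils of tendon and ligament, differed from ES cells by 0.35 with bexarotene, 0.36 with RA and 0.30 without ligand. Col9a1, Col9a2 and Col9a3, which together coat type II fibrils, had differences between -0.06 and 0.21, so none of the collagen IX chains was past 1.5-fold where Col2a1 was. Col14a1, Col16a1, Col19a1, Col20a1 and Col22a1, of the same group, lay between -0.12 and 0.22 of ES cells. Col23a1, a transmembrane collagen, differed by 0.30, 0.31 and 0.36, and Col13a1, Col17a1 and Col25a1 lay between -0.27 and 0.04. Col10a1, the collagen of hypertrophic cartilage, had a log2 signal of 5.34, 5.33 and 5.20, against 5.39 in ES cells. Col8a1 and Col8a2, the short chains of vessel wall and cornea, lay between -0.22 and 0.06 of ES cells, and Col28a1 between -0.08 and 0.01.

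Most collagen genes varied little over the 4 arrays. The distance between the highest and the lowest array had a median of 0.19 over the 44 genes, against 0.32 over all genes, and was under 0.5 for 39 of them (88.6%), against 68.8% of all genes. On all 4 arrays 14 of the 44 genes (31.8%) were under the array median, against 36.9% of all genes, and only 4 (9.09%) reached the upper quartile of any array, against 34.5% of all genes. These 4 were Col4a1, Col4a2, Col2a1 and Col18a1, and the part of signal level in the narrow distances was not tested. The widest distance was 2.35, for Col4a2. The RA array was the highest of the 4 for 18 collagen genes, the ES array for 12, the untreated array for 8 and the bexarotene array for 6. The same count was not made over all genes, so it is no result about the family.

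Between EB arrays no collagen gene was past 1.5-fold. For bexarotene against untreated EBs the background was 1.48% of all genes higher and 2.15% lower, and for RA against untreated EBs it was 2.07% higher and 2.22% lower. For bexarotene against RA it was 0.196% higher and 0.296% lower. At these shares about 1 collagen gene or fewer would be past the threshold in each direction, so the absence of calls is no result about the family. The 2 comparisons with untreated EBs share that array.

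The values themselves show how far the ligand arrays lay from the untreated one. With bexarotene the differences from untreated EBs ran between -0.37 for Col1a2 and 0.29 for Col3a1, with a median of 0.05, and 31 of 44 genes were above 0. With RA they ran between -0.32 for Col6a1 and 0.30 for Col27a1, with a median of 0.08, and 33 genes were above 0. The median over all genes was -0.01 with bexarotene and 0.00 with RA. Of all 19938 genes, 9562 were above 0 with bexarotene and 9937 with RA. Within 0.2 of untreated EBs lay 86.4% of collagen genes with bexarotene, against 74.2% of all genes, and 72.7% with RA, against 71.9%. Col1a2 and Col6a1 lay under untreated EBs in both ligand arrays, with differences of -0.37 and -0.30 with bexarotene and of -0.25 and -0.32 with RA. For Col1a1 the difference was -0.00 with bexarotene and -0.24 with RA. Neural genes did part the same arrays, as 8 of 10 were past 1.5-fold higher with bexarotene and 8 with RA than in untreated EBs, against 1.48% and 2.07% of all genes.

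Bexarotene EBs and RA EBs were nearly alike in these genes. Differences of bexarotene over RA ran between -0.21 for Col9a2, a chain that coats cartilage fibrils, and 0.31 for Col6a4, with a median of -0.01, and 93.2% lay within 0.2, against 88.1% of all genes. The difference was -0.14 for Col4a1 and -0.12 for Col4a2, while it was 0.17 for Col2a1 and 0.24 for Col1a1. Of all genes 95% lay between -0.30 and 0.25 in this comparison, and Col6a4 was the collagen outside that range.

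**Figure D3:**
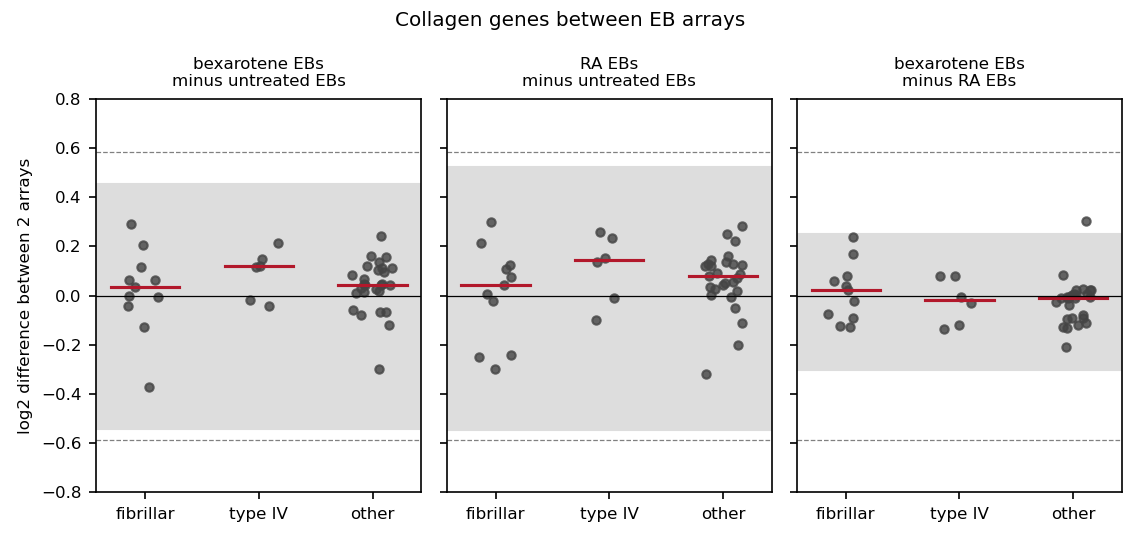
Log2 difference of each of the 44 collagen genes between EB arrays (bexarotene minus untreated, RA minus untreated and bexarotene minus RA), 1 point per gene, with dashed lines at 1.5-fold. All points lie inside the lines, the farthest being Col1a2 at -0.37 in bexarotene minus untreated EBs.

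Before a collagen leaves the cell its prolines and lysines are hydroxylated and partly glycosylated, and chaperones guide the helix to export. Outside the cell propeptides are cut off fibrillar chains, lysyl oxidases cross-link the fibrils, and metalloproteinases take them apart. Of 63 measured genes of these steps and of collagen receptors and small proteoglycans, 22 were higher and 5 lower than in ES cells with bexarotene, 21 and 5 with RA, and 23 and 5 without ligand. Over all genes 10.2%, 10.5% and 11.0% were higher and 9.69%, 9.19% and 8.52% lower in these arrays. For the 63 genes the shares were 34.9%, 33.3% and 36.5% higher and 7.94% lower in each, so only the higher share lay well over that of all genes.

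Of 15 genes of hydroxylation and glycosylation, 7 were higher in each EB array and none was lower. Over all genes 10.2% were higher with bexarotene, 10.5% with RA and 11.0% without ligand. P3h2, a prolyl 3-hydroxylase that acts on type IV chains, had a log2 signal of 10.95 with bexarotene, 10.65 with RA and 10.90 in untreated EBs, against 7.49 in ES cells. P4ha1, the catalytic subunit of the main prolyl 4-hydroxylase, had 10.45, 10.41 and 10.36, against 8.49. Plod2, which hydroxylates lysines of the telopeptides, had 11.32, 11.26 and 11.12, against 9.72. P4ha2, P3h3, P3h4 and Plod3 made up the rest, whereas P3h1 and Crtap, partners in the 3-hydroxylation of fibrillar chains, were not past 1.5-fold. Among chaperones and export factors 5 of 8 rose in each EB array, beside the same shares of all genes. Serpinh1, the collagen chaperone HSP47, had 9.82, 9.85 and 9.87, against 8.33. Mia2, which helps load large cargo at the exit sites of the endoplasmic reticulum, had 6.92, 7.07 and 6.98, against 4.87. That ES signal lay under the lower quartile of its array, which was 5.19, so the size of the gap is uncertain. Sparc, a collagen-binding matrix protein that parietal endoderm secretes in large amounts, had 12.43, 12.47 and 12.41, against 11.53. These genes shared with Col4a1 and Col4a2 the gap between every EB array and ES cells, and between EB arrays none of the 15 hydroxylation and 8 chaperone and export genes was past 1.5-fold.

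Of 7 genes of propeptide removal, 2 were higher and 3 lower than in ES cells in each EB array. The shares of all genes were 10.2% higher and 9.69% lower with bexarotene, 10.5% and 9.19% with RA, and 11.0% and 8.52% without ligand. Bmp1, the C-proteinase of fibrillar procollagens, exceeded ES cells by 1.39 with bexarotene, 1.42 with RA and 1.36 without ligand, and Adamts3, an N-proteinase, by 1.23, 0.93 and 0.77. Pcolce, an enhancer of Bmp1, went the other way, with a log2 signal of 8.66 with bexarotene, 8.62 with RA and 8.12 in untreated EBs, against 10.97 in ES cells. Pcolce2 had 7.03, 6.77 and 7.43, against 8.65, and with RA its difference from untreated EBs was -0.66, past 1.5-fold. Adamts14 was also lower than in ES cells in each EB array. Of 4 lysyl oxidase genes only Loxl3 rose, by 0.81, 0.83 and 0.92. Of the 8 receptor genes, among them the integrin chains Itga1 and Itga2 and the kinases Ddr1 and Ddr2, none was past 1.5-fold. At the shares of all genes given above, 1 call among 4 lysyl oxidase genes is no result about that list. Nor is the absence of calls in so short a list a result about receptors.

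Among 13 genes of collagen breakdown and its inhibitors, Timp3, Timp2, Mrc2 and Mmp16 rose in every EB array and Timp1 and Mmp9 fell. Of all genes, 10.2% were higher with bexarotene, 10.5% with RA and 11.0% without ligand, and 9.69%, 9.19% and 8.52% were lower. Timp3, an inhibitor that is held in the matrix, had a log2 signal of 10.66 with bexarotene, 10.64 with RA and 10.60 in untreated EBs, against 7.65 in ES cells. Mrc2, the uptake receptor for collagen fragments, had 8.74, 8.70 and 8.91, against 6.81. Mmp2, a gelatinase that cleaves type IV collagen, had 9.89, 9.61 and 10.39, against 9.05, and was past 1.5-fold with bexarotene and without ligand. Its difference from untreated EBs was -0.51 with bexarotene, short of 1.5-fold, and -0.78 with RA, past it.

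Of these 63 genes, the widest gap between ligand and untreated EBs was in the small proteoglycans that bind fibrils. Lum (lumican), which spaces thin fibrils, had a log2 signal of 4.37 with bexarotene and 4.31 with RA, against 6.22 in untreated EBs, and 4.07 in ES cells. Dcn (decorin) had 6.75 and 6.38, against 7.06 in untreated EBs and 5.35 in ES cells. Prelp, a basement membrane anchor, ran the other way, with 6.38 and 6.51, against 5.84 and 5.64. Lum was thus near its ES signal in both ligand arrays and higher only without ligand, whereas Dcn was higher than in ES cells in all 3 EB arrays. The low Lum signals lay under the lower quartile of their arrays, which was 5.22 with bexarotene, 5.20 with RA and 5.19 in ES cells. Small differences among them cannot be read at such low signal. Of the 63 genes, Lum, Dcn, Mmp2 and Pcolce2 were lower and Prelp higher with RA than without ligand, and Lum alone was past 1.5-fold with bexarotene. With RA that is 6.35% lower and 1.59% higher, against 2.22% and 2.07% of all genes, and with bexarotene 1.59% lower, against 2.15%, so the single calls lie under the share of all genes.

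**Figure D4:**
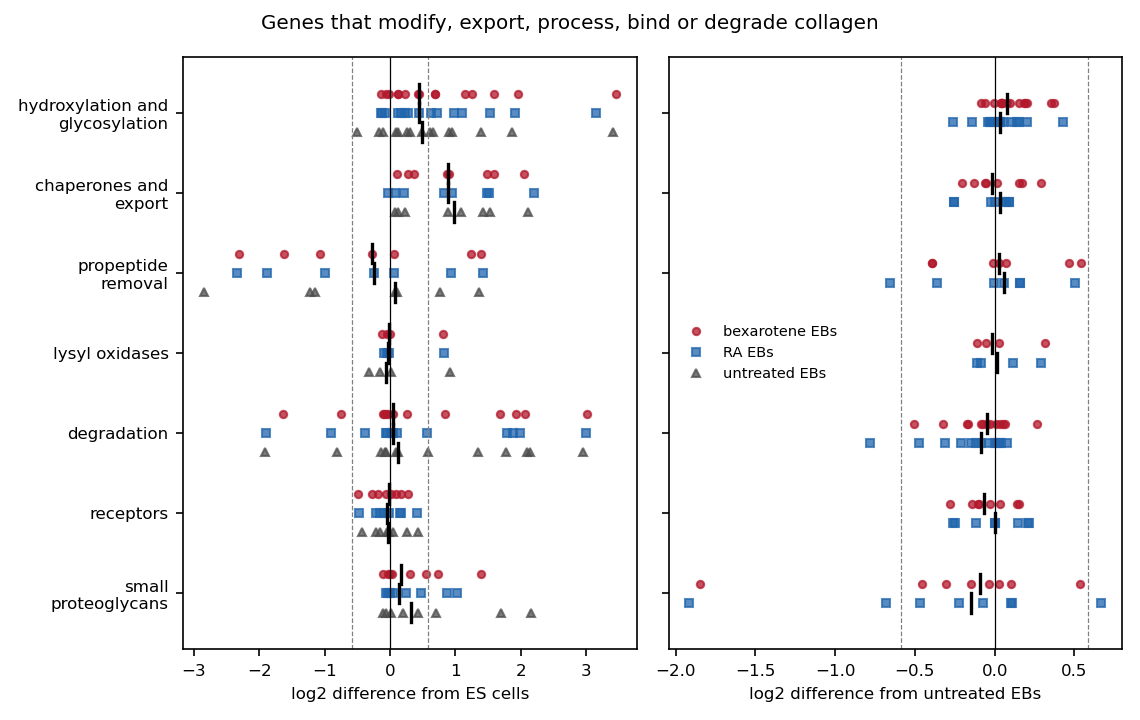
Log2 differences of 63 genes that modify, export, process, bind or degrade collagen, by step, for each EB array minus ES cells (left) and each ligand minus untreated EBs (right); points are genes, black bars medians and dashed lines 1.5-fold. Hydroxylation and chaperone genes lie mostly right of 0 against ES cells, and Lum is the point farthest left in both ligand arrays against untreated EBs.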

How the data were processed

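The authors deposited 1 table of log2 signal per probe set for 4 Affymetrix arrays, 1 per condition, which they had corrected for background, normalized and reduced to probe set values. The submitters' processing notes name GCRMA and Affymetrix Expression Console, and the article names RMA. Gene symbols came from the platform annotation, which can be old. It gives 1 symbol for 21789 probe sets and several for 1621, which were not used. All 44 collagen symbols are current in RefSeq. A gene stood by its probe set with the highest mean over the 4 arrays, and further probe sets of Col6a5 and Col6a6 were kept aside. Differences were computed for 6 pairs of arrays with Python 3.11.15, with no test. Counts of collagen genes, and of the marker and pathway lists as a whole, are given beside the share of all 19938 genes past 1.5-fold. The collagen members, chain classes and gene lists were chosen with earlier results of these data known. Every collagen gene past 1.5-fold, its partner chains and up to about 6 genes of each other list are named, with further genes chosen after their values were seen. Promoter windows are those of RefSeq (GRCm38.p6), and protein features were not computed. The alternatives were a 2-fold threshold, quantile normalization, a floor at the 25th percentile, loess (span 0.3), leaving out genes under the median signal, counting every probe set, and a wider basement membrane class. Fkbp10, Adamts2, Loxl2 and other listed genes without a probe set of their own were not analysed here. The procedure was tested on simulated data.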

Additional observations from a re-analysis of the deposited data

How the results depend on the processing

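No paired analysis was possible because each condition has 1 array, and for the same reason no replicate could be left out. At a 2-fold threshold 2 collagen genes rather than 4 were higher with RA than in ES cells, Col4a1 and Col4a2. With every probe set counted on its own, 1 was lower than in ES cells with bexarotene and 1 without ligand, against 0 when genes were counted, both being the dimmer probe set of Col6a5. With Col7a1, Col15a1 and Col18a1 added to the basement membrane class its median against ES cells was 0.08 with bexarotene, 0.09 with RA and 0.01 without ligand. The difference of Col2a1 between bexarotene and untreated EBs was -0.07 after quantile normalization and -0.08 after loess, against -0.13. The differences of Col4a1, Col4a2, Col2a1 and Col26a1 and the basement membrane median kept their direction under the alternatives run for them, and the other counts of collagen genes stayed within 1.5 times. Directions of the other genes were not rechecked. Medians over all probe sets with 1 symbol are near 0 and turned sign under some scalings, being 0.04 for bexarotene minus ES cells and 0.02 for RA minus ES cells with the floor, against -0.03 and -0.02. Signal near the background of a probe set compresses differences, so small shifts of dim chains could not be resolved, and 1 array per condition gives no spread to set any difference against.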
